A study of Mus musculus with 77 samples.

Results

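The translated messenger RNA of direct pathway spiny projection neurons of the mouse striatum was compared with that of indirect pathway neurons while the dopamine supply was intact. The members are the 20 of 77 arrays whose source label gives a mock lesion (ascorbate) and chronic saline. They are 10 arrays of direct pathway neurons (dSPN, Drd1 line) and 10 arrays of indirect pathway neurons (iSPN, Drd2 line), and all genes were compared between them. Each difference below is dSPN minus iSPN on the log2 scale, so 1 unit is a 2-fold difference.

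Spiny projection neurons are the inhibitory output cells of the striatum. The direct pathway cells carry the D1 dopamine receptor, which raises cyclic AMP, and project to the output nuclei of the basal ganglia. The indirect pathway cells carry the D2 receptor, which lowers cyclic AMP, and an adenosine receptor encoded by Adora2a, and they project to the external globus pallidus. Substance P and dynorphin are the peptides of the direct pathway, and enkephalin is that of the indirect pathway.

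The study set the lines against each other and followed both through dopamine loss and levodopa treatment. Translating ribosome affinity purification (TRAP) pulls down ribosomes that carry a green fluorescent tag (EGFP-L10a), with the messenger RNA on them, from the cells whose promoter drives the tag. The dSPN arrays came from mice with a bacterial artificial chromosome (BAC) transgene under Drd1 control (line CP73), and the iSPN arrays from mice with a BAC transgene under Drd2 control (line CP101), both on C57BL/6J. All mice were males of 9 to 14 weeks, and each array held the dorsal striatum of a single mouse. In the 20 mice described here the medial forebrain bundle of the right side had received vehicle with ascorbate in place of the toxin 6-hydroxydopamine, and daily saline followed for 9 days from 3 weeks after surgery. Lesioned mice with saline (11 dSPN and 7 iSPN arrays) are used for a further look at the same line difference, as are lesioned mice with low or high levodopa (12 and 11 dSPN arrays, 8 and 8 iSPN arrays). Each line is a single transgenic line, so effects of the transgene, its insertion site or its line cannot be told apart from those of the cell type.

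The defining genes of both cell types were abundant: the list of shared spiny projection neuron markers averaged between 11.03 and 11.16 over its members in the dSPN arrays and between 11.13 and 11.24 in the iSPN arrays. The arrays of the lines were not equally uniform. The median correlation of an array with the others of its line lay between 0.974 and 0.979 in dSPN and between 0.938 and 0.967 in iSPN, where replicate 3 was lowest. Markers of oligodendrocytes averaged between 6.29 and 7.37 (median 6.75) in dSPN and between 6.88 and 8.36 (median 7.60) in iSPN, with the highest value again in iSPN replicate 3. Astrocyte markers averaged between 5.92 and 6.54 (median 6.18) in dSPN and between 6.25 and 7.08 (median 6.73) in iSPN. The part of these glial levels in the differences below was not tested beyond a fit with the marker mean as a covariate, whose counts are given with the gene groups. Animal numbers in the titles climb and start again several times, and each climb is called a run here. The sources used here do not say what a run is. No run holds arrays of both lines, and the effects of line and run cannot be told apart. In bulk samples such as these, fewer cells of a type and less RNA per cell cannot be told apart.

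**Figure D1:**
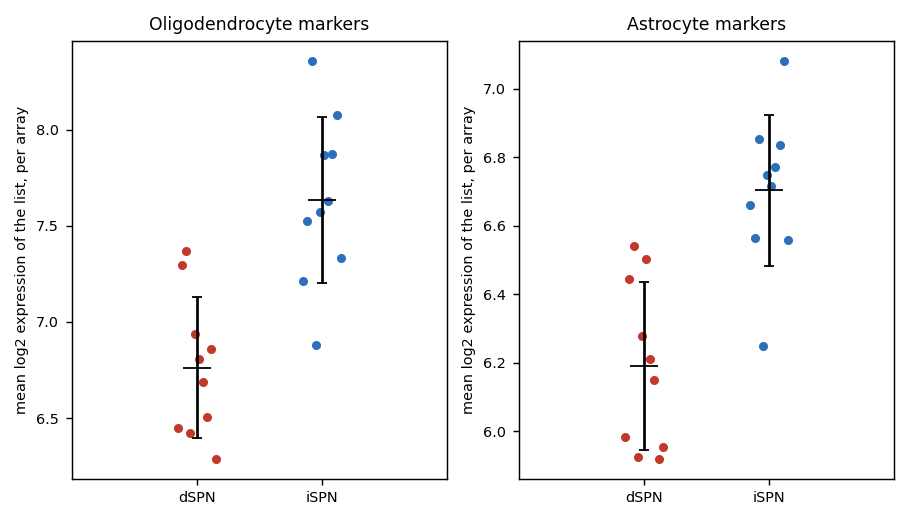
Mean log2 expression of the oligodendrocyte list (left) and the astrocyte list (right) in each array (points), dSPN in red and iSPN in blue, with group mean and standard deviation (SD) in black. The oligodendrocyte mean had a median of 6.75 in dSPN and 7.60 in iSPN, and the ranges of the lines overlap in both panels.

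Of 13257 genes tested, 2448 (18.5%) differed between the lines at an adjusted p under 0.05 in limma, 1177 of them higher in dSPN (8.88%) and 1271 lower (9.59%). The differences were mostly small, with a median size of 0.60 among called genes and of 0.01, signed, among all genes tested. Over 2-fold, 431 genes were called (3.25%), 150 higher and 281 lower, and 32 passed 4-fold. In 303 genes (2.29%) the 10 arrays of each line did not overlap at all, 140 of them higher and 163 lower. A fit with the oligodendrocyte mean of each array as a covariate called 583 genes (4.4%), 490 of them among the 2448 with the same sign, and with the astrocyte mean 436 (3.29%). Of the 431 genes over 2-fold, 153 were called with the oligodendrocyte covariate and 143 with the astrocyte covariate. The covariate differs between the lines, so it also removes difference that belongs to the line, and a call lost with it says nothing on the cause. In each gene list below, the astrocyte covariate kept as many called members as the oligodendrocyte covariate or up to 2 fewer. The share of a list that was called is set beside the 18.5% of all genes.

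**Figure D2:**
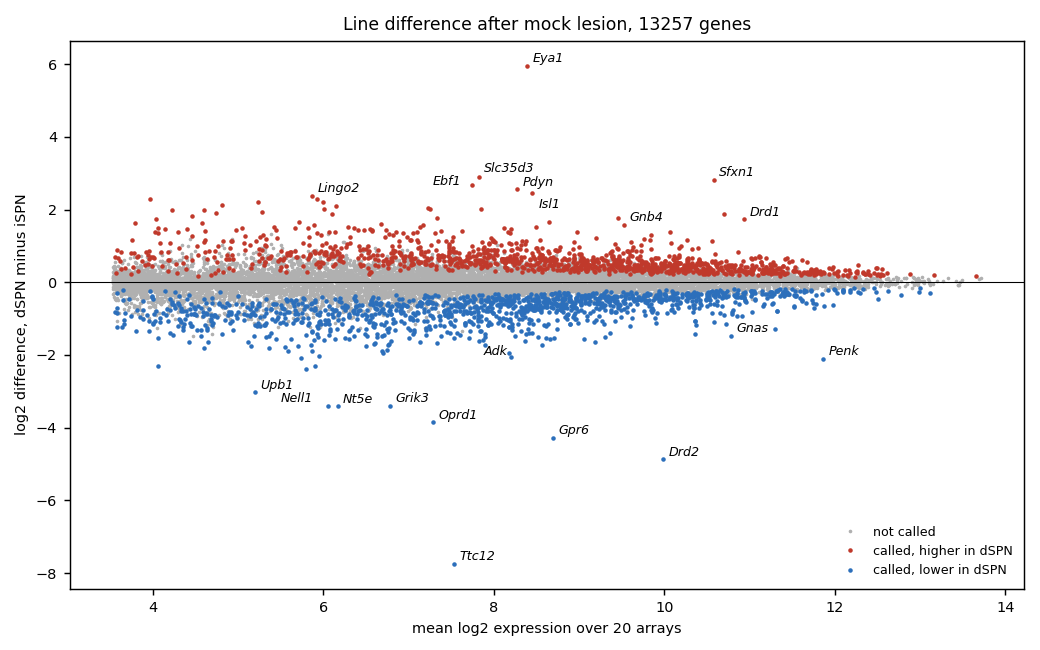
Difference dSPN minus iSPN (log2) against the mean log2 expression over the 20 arrays for 13257 genes, with called genes in red (higher in dSPN) and blue (lower) and genes not called in grey. Eya1 at 5.96 and Ttc12 at -7.74 stand furthest from 0, and the called genes lie at every level.

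The best-known markers set the scale. All 8 dSPN markers were called higher and all 5 measured iSPN markers lower, with no overlap between the lines for any of the 13. This list was chosen for its known direction and is a check of the labels. Eya1, a transcriptional coactivator and phosphatase, had values of 10.74 to 11.56 (median 11.45) in dSPN and 4.39 to 6.75 (median 5.26) in iSPN, with a difference of 5.96 (SE 0.25, adjusted p = 3.17e-13), or 62.2-fold. Slc35d3, a nucleotide sugar transporter family member that supports D1 receptor trafficking, stood between 8.84 and 9.90 (median 9.17) in dSPN, against 5.62 to 7.70 (median 6.24) in iSPN, with a difference of 2.89 (SE 0.21, adjusted p = 5.62e-09). The driver receptor Drd1 itself lay between 11.63 and 11.93 (median 11.79) in dSPN and between 9.48 and 10.54 (median 10.15) in iSPN, with a difference of 1.73 (SE 0.12, adjusted p = 4.28e-09), so its level was high in the iSPN arrays too. The substance P precursor Tac1 had values of 11.41 to 11.98 (median 11.65) in dSPN and 9.32 to 10.12 (median 9.79) in iSPN. Pdyn, the dynorphin precursor, stood between 8.94 and 9.93 (median 9.68) in dSPN, against 6.11 to 8.002 (median 6.96) in iSPN. The homeodomain factor Isl1, which specifies the direct pathway, lay between 9.50 and 9.81 (median 9.69) in dSPN and between 6.62 and 8.27 (median 7.17) in iSPN, and the helix-loop-helix factor Ebf1 had values of 8.45 to 9.39 (median 9.15) in dSPN and 4.77 to 7.78 (median 6.69) in iSPN. The muscarinic receptor Chrm4, which opposes D1 signalling in these cells, stood between 6.45 and 7.90 (median 6.99) in dSPN, against 4.27 to 6.30 (median 4.70) in iSPN.

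Among the iSPN markers, Drd2 lay between 7.15 and 8.05 (median 7.63) in dSPN and between 12.09 and 12.73 (median 12.41) in iSPN, with a difference of -4.87 (SE 0.12, adjusted p = 1.43e-17). The constitutively active receptor Gpr6 had values of 5.90 to 7.46 (median 6.51) in dSPN and 10.34 to 11.41 (median 10.83) in iSPN, with a difference of -4.27 (SE 0.17, adjusted p = 2.97e-13). The delta opioid receptor Oprd1, which binds enkephalin, stood between 3.58 and 6.29 (median 5.39) in dSPN, against 8.42 to 10.07 (median 9.22) in iSPN. Nt5e, the ecto-enzyme that makes adenosine from AMP outside the cell, lay between 3.48 and 5.34 (median 4.59) in dSPN and between 7.12 and 8.73 (median 7.86) in iSPN, with 2 of its 3 probe sets called. The enkephalin precursor Penk had values of 10.59 to 11.11 (median 10.84) in dSPN and 12.72 to 13.02 (median 12.94) in iSPN, with a difference of -2.10 (SE 0.07, adjusted p = 9.04e-15), so its RNA was abundant in both purifications. Adora2a, Sp9 and Gpr52 carry no single-gene probe set name here and were not analysed.

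The promoter windows of leading markers are shown because the direct pathway factor Ebf1 binds known letters, as do factors that answer to cyclic AMP, the messenger on which the D1 and D2 receptors act. Each window of 300 bases spans the annotated start, from RefSeq (GRCm38.p6), and is printed on the gene's strand, 5′ to 3′. For dSPN the windows of Slc35d3 and Pdyn were in the table, and for iSPN those of Gpr6 and Drd2. Pdyn has 2 windows there, of which the first is shown. Capitals mark a match to an EBF core (CCCNNGGGA) or to the cAMP response element (TGACGTCA), each searched on both strands and with no overlap between the motifs in these windows.
Slc35d3 at chr10:19851410-19851709, minus strand: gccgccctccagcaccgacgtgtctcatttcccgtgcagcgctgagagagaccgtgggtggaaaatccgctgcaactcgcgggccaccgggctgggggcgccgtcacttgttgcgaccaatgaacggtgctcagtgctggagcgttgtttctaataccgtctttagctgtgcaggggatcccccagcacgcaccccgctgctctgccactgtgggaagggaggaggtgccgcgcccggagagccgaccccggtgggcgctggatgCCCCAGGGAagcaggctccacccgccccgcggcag
Pdyn at chr2:129699889-129700188, minus strand: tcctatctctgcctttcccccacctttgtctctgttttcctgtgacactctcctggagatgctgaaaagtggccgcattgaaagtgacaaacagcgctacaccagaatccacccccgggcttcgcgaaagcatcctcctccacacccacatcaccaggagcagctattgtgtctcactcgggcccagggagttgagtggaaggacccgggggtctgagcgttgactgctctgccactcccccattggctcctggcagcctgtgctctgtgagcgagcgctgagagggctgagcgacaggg
Gpr6 at chr10:41072241-41072540, minus strand: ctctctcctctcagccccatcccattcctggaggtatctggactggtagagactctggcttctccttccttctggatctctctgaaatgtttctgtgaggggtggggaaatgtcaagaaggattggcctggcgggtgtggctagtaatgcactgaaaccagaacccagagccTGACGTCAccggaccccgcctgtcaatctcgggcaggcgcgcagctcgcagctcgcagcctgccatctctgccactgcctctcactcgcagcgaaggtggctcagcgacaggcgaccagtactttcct
Drd2 at chr9:49340153-49340452, plus strand: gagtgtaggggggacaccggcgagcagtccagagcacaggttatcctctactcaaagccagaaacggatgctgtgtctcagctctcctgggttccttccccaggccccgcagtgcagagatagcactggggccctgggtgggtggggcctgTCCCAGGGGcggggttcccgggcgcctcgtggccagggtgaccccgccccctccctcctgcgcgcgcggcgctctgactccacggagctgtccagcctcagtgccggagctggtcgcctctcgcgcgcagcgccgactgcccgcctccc
The windows of Slc35d3 and Drd2 each held 1 EBF core match, and that of Gpr6 held 1 cAMP response element. Over all 27025 windows of the table, 6.43% held the EBF core and 1.88% the cAMP response element. Among tested genes with a window the EBF core was found in 7.85%, among those over 2-fold higher in dSPN in 11.4% (14 of 123), and among those over 2-fold lower in 12.8% (30 of 235). The cAMP response element was in 3.22% of tested genes, in 2.44% of the higher genes and in 2.98% of the lower ones. A match is a description of letters and says nothing on binding.

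The genes beside the promoters that drive the tag differed strongly. A BAC carries a long stretch of flanking DNA, so signal from extra gene copies on the transgene and from the gene's own locus cannot be told apart. Ttc12, a tetratricopeptide repeat gene beyond Drd2 in the annotation, stood between 2.96 and 4.65 (median 3.55) in dSPN, against 11.01 to 11.79 (median 11.38) in iSPN, with a difference of -7.74 (SE 0.19, adjusted p = 1.43e-17), or 214-fold, the largest of all genes tested. Its dSPN median lay beside the level filter (3.53), so the exact fold rests on values near the floor. Sfxn1, a mitochondrial serine transporter next to Drd1, lay between 11.70 and 12.14 (median 12.01) in dSPN and between 8.49 and 9.65 (median 9.28) in iSPN, with a difference of 2.82 (SE 0.13, adjusted p = 2.88e-12). Farther out, the histamine receptor Hrh2 beyond Sfxn1 differed by 0.01 (SE 0.11, adjusted p = 0.967) and the protease Tmprss5 on the other side of Drd2 by 0.09 (SE 0.11, adjusted p = 0.604). Both were low in dSPN and iSPN, with means of 4.07 and 4.06 for Hrh2 and of 4.87 and 4.78 for Tmprss5. Array medians ran from 4.31 to 4.42, so these values cannot show how far an effect of the flanking DNA reaches. Msx2 was under the level filter, and Gm38564, Ankk1 and Gm4894 have no named probe set here. Among 31 tested genes within 2 annotated genes of the other 11 best-known markers, 12 were called (38.7%, against 18.5% of all genes), 10 of them in the direction of the marker, and 5 passed 2-fold (16.1%, against 3.25%). Those 5 were Fig4 near Gpr6 (-1.96), Il20ra near Slc35d3 (1.46), Dgkz near Chrm4 (1.38), Msc near Eya1 (1.37) and Sdhaf3 near Tac1 (1.13). Upb1 at -3.03 and Gucd1 at -1.04 follow Adora2a in the annotation.

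Beyond the markers, 12 genes stood highest in dSPN, with Sfxn1 at their head and Lingo2 next. Lingo2, a leucine-rich repeat membrane protein of neurons, had values of 6.38 to 7.67 (median 6.93) in dSPN and 3.50 to 5.70 (median 4.64) in iSPN, with a difference of 2.38 (SE 0.29, adjusted p = 1.14e-05), although only 1 of its 2 probe sets was called. The peptide-loading chaperone H2-DMb2 of the antigen presentation pathway stood between 5.86 and 8.47 (median 7.13) in dSPN, against 3.50 to 6.72 (median 4.26) in iSPN, with overlapping groups and all 3 probe sets called. Impg1, a proteoglycan known from the photoreceptor matrix, lay between 5.39 and 6.97 (median 6.46) in dSPN and between 3.60 and 4.85 (median 3.97) in iSPN. Gm12371, a predicted gene, had values of 4.41 to 5.78 (median 5.08) in dSPN and 1.88 to 3.75 (median 2.71) in iSPN, where the median lay under the level filter (3.53). The neuropeptide Y receptor Npy1r stood between 5.31 and 6.35 (median 5.91) in dSPN, against 2.36 to 5.14 (median 3.77) in iSPN, and the somatostatin receptor Sstr4 lay between 6.11 and 8.06 (median 7.33) in dSPN and between 4.01 and 6.54 (median 5.01) in iSPN. Neuropeptide Y and somatostatin, which bind these receptors, are peptides of striatal interneurons. The arrays of the lines overlapped for H2-DMb2 and Sstr4 and stood apart for Lingo2, Impg1, Gm12371 and Npy1r. With the astrocyte covariate the calls of H2-DMb2 (adjusted p = 0.0585) and Npy1r (adjusted p = 0.0561) were lost.

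Fxyd7 and Igfbp6 had the smallest errors of the 12 beside Sfxn1. Fxyd7, a brain regulator of the sodium pump, had values of 7.49 to 8.72 (median 8.25) in dSPN and 5.55 to 6.69 (median 6.17) in iSPN, with a difference of 2.05 (SE 0.15, adjusted p = 1.1e-08). Igfbp6, which binds insulin-like growth factor, stood between 7.65 and 8.60 (median 8.31) in dSPN, against 5.75 to 6.99 (median 6.14) in iSPN, with a difference of 2.02 (SE 0.15, adjusted p = 8.59e-09). For both the 10 dSPN arrays lay above all iSPN arrays. The metal-binding protein Mt3 lay between 7.98 and 9.50 (median 8.77) in dSPN and between 5.30 and 8.08 (median 6.95) in iSPN, C2cd4c had values of 5.61 to 7.83 (median 7.26) in dSPN and 3.45 to 6.62 (median 5.23) in iSPN, and the cell adhesion family member Ceacam10 stood between 3.25 and 6.82 (median 5.36) in dSPN, against 2.84 to 4.17 (median 3.13) in iSPN. In these 3 the groups overlapped, and the call of Mt3 was lost with the oligodendrocyte covariate (adjusted p = 0.171). The iSPN median of Ceacam10 lay under the level filter (3.53).

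The genes lowest in dSPN after Ttc12 were Nell1 and Grik3. Nell1, a secreted protein with growth factor-like repeats, lay between 3.16 and 6.22 (median 4.44) in dSPN and between 7.04 and 8.92 (median 7.64) in iSPN, with a difference of -3.40 (SE 0.32, adjusted p = 2.66e-07). Grik3, a kainate receptor subunit, had values of 4.299 to 5.92 (median 5.02) in dSPN and 8.15 to 9.14 (median 8.45) in iSPN, with a difference of -3.40 (SE 0.17, adjusted p = 7.99e-12), and both of its probe sets agreed. Upb1, an enzyme of pyrimidine breakdown, stood between 3.44 and 3.95 (median 3.66) in dSPN, against 5.58 to 8.22 (median 6.59) in iSPN, with a difference of -3.03 (SE 0.25, adjusted p = 4.9e-08). The peptide precursor Nts lay between 3.57 and 6.003 (median 4.54) in dSPN and between 5.92 and 7.59 (median 7.03) in iSPN, with a difference of -2.39 (SE 0.27, adjusted p = 3.14e-06) and overlap at the edge through iSPN replicate 3. Chrm3, a muscarinic receptor coupled to calcium release, had values of 2.59 to 3.39 (median 2.88) in dSPN and 4.23 to 6.06 (median 5.35) in iSPN, with a difference of -2.32 (SE 0.19, adjusted p = 5.77e-08). All dSPN values of Chrm3 lay under the level filter (3.53), which the gene passed only through its iSPN arrays. By value the M4 receptor gene Chrm4 was higher in dSPN and the M3 receptor gene Chrm3 lower.

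The rest of the 12 lowest genes held phosphatases and membrane proteins. Plxdc1, a plexin domain protein, stood between 4.05 and 5.53 (median 4.82) in dSPN, against 6.12 to 8.20 (median 6.95) in iSPN. The receptor phosphatase Ptprm, which binds itself between cells, lay between 6.69 and 7.75 (median 7.10) in dSPN and between 8.69 and 9.77 (median 9.08) in iSPN, the phosphatase Cdc14a had values of 4.50 to 5.48 (median 4.97) in dSPN and 5.55 to 7.83 (median 6.98) in iSPN, and the phosphoinositide phosphatase Fig4 stood between 5.19 and 6.23 (median 5.74) in dSPN, against 6.96 to 8.47 (median 7.63) in iSPN. Fam163b had the smallest error of the 12 lowest genes, as it lay between 6.84 and 7.68 (median 7.24) in dSPN and between 8.75 and 9.40 (median 9.19) in iSPN, with a difference of -1.95 (SE 0.10, adjusted p = 1.8e-11). Tmem98, a membrane protein, had values of 3.45 to 5.80 (median 4.77) in dSPN and 5.14 to 8.23 (median 6.79) in iSPN, and its call was lost with the oligodendrocyte covariate (adjusted p = 0.127). Of the 24 leading genes, 17 had no overlap between the lines, against 2.29% of all genes tested. With the oligodendrocyte covariate 22 were called and with the astrocyte covariate 20, against 153 and 143 of the 431 genes over 2-fold. The 24 were picked for their differences on these same arrays, so these counts are a description.

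**Figure D3:**
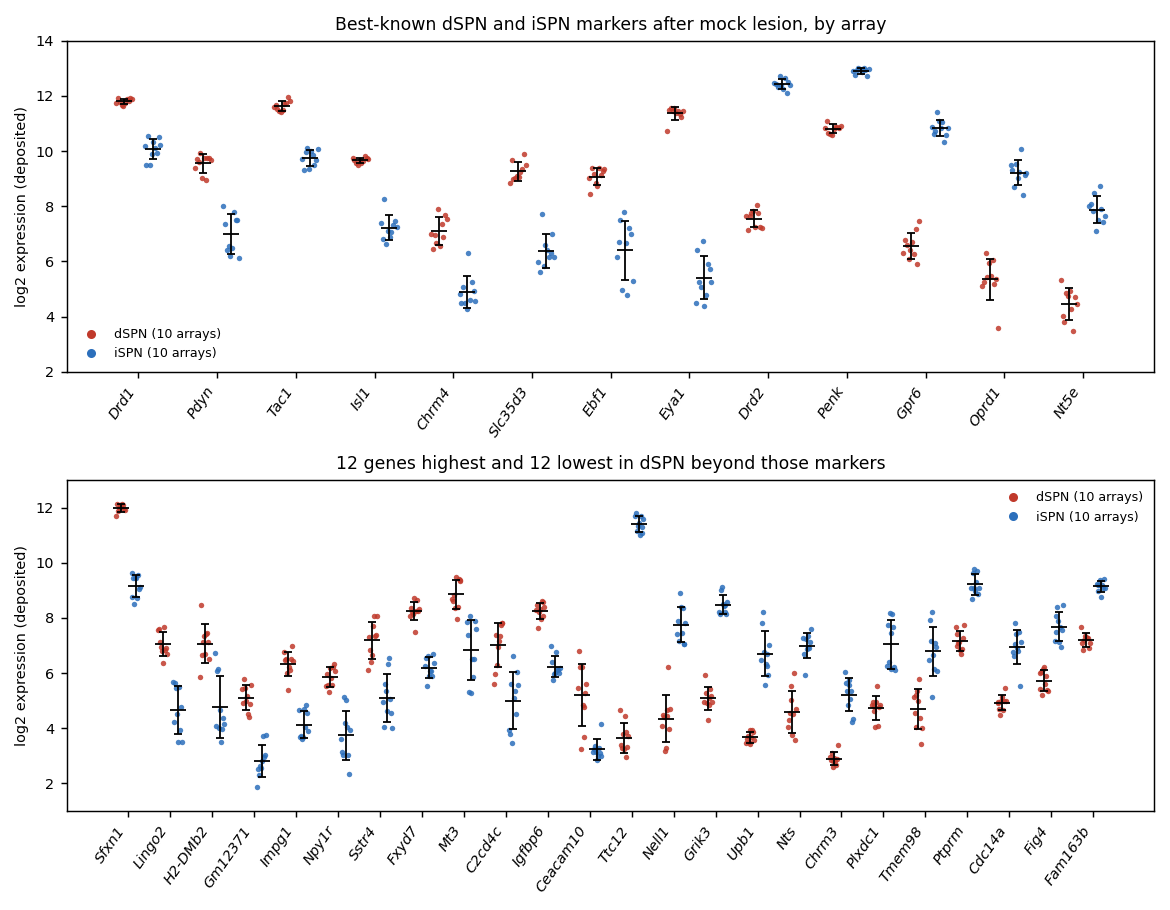
Log2 expression in each array of the 13 best-known markers (top) and of the 24 leading genes beyond them (bottom), dSPN in red left of iSPN in blue, with mean and SD in black. All 13 markers separate the arrays of the lines, and so do 17 of the 24 leading genes, which were picked for their differences on these arrays.

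Transcription factors of the striatal lineage were called in 34 of 79 cases (43%, against 18.5% of all genes), 6 higher and 28 lower in dSPN, a list median of -0.22. The 6 higher ones were Eya1, Ebf1, Isl1, Foxp2 (0.86), the homeodomain factor Dlx6 (0.67) and the cofactor Lmo4 (0.34). Foxp2, a forkhead factor tied to striatal vocal and motor circuits, stood between 9.46 and 10.22 (median 10.06) in dSPN, against 8.71 to 9.63 (median 9.05) in iSPN. On the lower side the zinc finger factor Zic1 lay between 2.87 and 5.73 (median 4.22) in dSPN and between 4.64 and 7.33 (median 6.07) in iSPN, with a difference of -1.76 (SE 0.38, adjusted p = 0.00249), with overlapping groups. Bach2, also a striosome gene, had values of 7.35 to 8.48 (median 7.97) in dSPN and 8.82 to 10.69 (median 9.41) in iSPN, with a difference of -1.55 (SE 0.22, adjusted p = 5.45e-05) and all 3 probe sets called. The homeodomain factor Meis1 stood between 3.80 and 4.97 (median 4.49) in dSPN, against 5.21 to 6.80 (median 5.79) in iSPN, with a difference of -1.49 (SE 0.21, adjusted p = 4.64e-05). Several others on that side are also expressed by glia, such as Sox2 (-1.12), Nfib (-1.16), Tcf7l2 (-1.42) and Zeb2 (-1.53). With the oligodendrocyte covariate 7 of the 34 remained called, among them Eya1, Ebf1, Isl1, Foxp2 and Meis1. Of all 2448 called genes, 490 were called in that fit with the same sign. The part of glial RNA in this list was not tested. In the lesioned mice with saline 22 of the 34 were called with the same sign, against 40.8% of all genes called after mock lesion.

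G protein-coupled receptors were called in 26 of 74 cases (35.1%, against 18.5%), 16 higher and 10 lower, with a list median of 0.08. The higher ones beside Drd1, Chrm4, Npy1r and Sstr4 included the orphan receptor Gpr26 (1.36), the somatostatin receptor Sstr2 (1.26), the cholecystokinin receptor Cckbr (1.26), the serotonin receptor Htr1f (1.15) and the neuropeptide Y receptor Npy5r (0.87). Also higher were the prostaglandin receptor Ptger4 (1.92), Gpr101 (1.42), the glutamate receptor Grm8 (1.16), Gpr162 (0.67), Gpr12 (0.65), Gpr158 (0.57) and the Wnt receptor Fzd3 (0.47). The lower ones outside the markers were Chrm3, the ATP and ADP receptor P2ry1 (-1.63), the histamine receptor Hrh3 (-1.51), the lipid receptor S1pr5 (-1.47), Gprc5b (-0.997), Gpr149 (-0.91) and the serotonin receptor Htr2c (-0.67). Hrh3 lay between 6.79 and 7.56 (median 7.13) in dSPN and between 8.24 and 9.07 (median 8.56) in iSPN, so the arrays of the lines did not overlap. After adding the oligodendrocyte covariate 16 of the 26 were called.

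Inside the cell, genes of cyclic AMP signalling were called in 23 of 65 cases (35.4%, against 18.5%), 6 higher and 17 lower, with a list median of -0.06. Gnb4, a G protein beta subunit, had values of 10.13 to 10.46 (median 10.33) in dSPN and 8.44 to 9.18 (median 8.73) in iSPN, with a difference of 1.59 (SE 0.09, adjusted p = 7.09e-11) and all 3 probe sets called. The stimulatory G protein gene Gnas stood between 9.60 and 10.62 (median 9.99) in dSPN, against 10.995 to 11.82 (median 11.52) in iSPN, with a difference of -1.48 (SE 0.13, adjusted p = 6.55e-08), but this came from 1 of 3 probe sets and the others did not differ (0.08 and 0.03). Its striatal relative Gnal, which couples D1 and adenosine receptors to adenylyl cyclase, differed by -0.32 with overlapping groups, and its 3 probe sets held 1 call in each direction. The inhibitory subunit Gnai1 was higher (0.73, adjusted p = 5.7e-05) and the gamma subunit Gng7 lower (-0.37). The nitric oxide receptor subunit Gucy1a1 lay between 10.44 and 11.38 (median 10.90) in dSPN and between 11.49 and 11.88 (median 11.72) in iSPN, and the Rap exchange factor Rapgef1 had values of 9.62 to 10.09 (median 9.81) in dSPN and 10.15 to 10.81 (median 10.57) in iSPN. The phosphodiesterase Pde8a was lower with overlapping groups (-1.03, adjusted p = 0.0176), and with the oligodendrocyte covariate the difference had the other sign (0.07). In that fit 8 of the 23 were called.

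Regulators of G proteins were called in 9 of 28 cases (32.1%, against 18.5%), 4 higher and 5 lower. Arrb1, which switches receptors off, stood between 11.13 and 11.55 (median 11.36) in dSPN, against 11.67 to 12.05 (median 11.93) in iSPN, with a difference of -0.52 (SE 0.07, adjusted p = 4.5e-05). Rgs6 was higher (1.20) and Rgs3 lower (-0.86), both with overlapping groups, and the call of Rgs6 was lost on leaving out 1 array in 16 of 20 fits (adjusted p up to 0.0829) and with either covariate. Gpsm1 differed by 0.64. The other probe sets were not called for Rgs3 (-0.32 and 0.05) or for Gpsm1 (0.27 and 0.35), and both genes lost their call with either covariate. Ras and Rap regulators were called in 12 of 34 cases (35.3%), 7 higher and 5 lower. The calcium-dependent exchange factor Rasgrf2 lay between 7.35 and 8.32 (median 7.98) in dSPN and between 5.14 and 7.21 (median 6.39) in iSPN, with a difference of 1.57 (SE 0.20, adjusted p = 1.61e-05). Rasl10a (1.08) and Rassf3 (0.94) were also higher, whereas Sipa1l2 (-0.72) was lower, a call lost on leaving out 1 array in 15 of 20 fits (adjusted p up to 0.0851) and with either covariate. Rasd2, the striatal small G protein known as Rhes, had values of 11.16 to 11.66 (median 11.34) in dSPN and 11.84 to 12.16 (median 11.92) in iSPN, with a difference of -0.57 (SE 0.07, adjusted p = 1.73e-05). With the oligodendrocyte covariate 4 of the 9 and 7 of the 12 were called.

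Potassium channel genes were called in 17 of 51 cases (33.3%, against 18.5%), 12 higher and 5 lower in dSPN, and all the higher differences stayed under 1. The modifying subunits Kcns2 and Kcng1 stood highest among the called genes. Kcns2 stood between 8.52 and 9.38 (median 9.02) in dSPN, against 7.08 to 8.50 (median 8.20) in iSPN, with a difference of 0.85 (SE 0.16, adjusted p = 0.000682). Kcng1 lay between 7.59 and 8.35 (median 7.84) in dSPN and between 6.26 and 8.24 (median 6.94) in iSPN, with overlap. The A-current subunit Kcnip4 had values of 9.69 to 10.25 (median 10.04) in dSPN and 8.77 to 9.61 (median 9.11) in iSPN, without overlap. On the lower side the leak channel Kcnk2 stood between 9.35 and 9.79 (median 9.64) in dSPN, against 9.90 to 10.92 (median 10.53) in iSPN, with a difference of -0.86 (SE 0.11, adjusted p = 2.16e-05). Kcnj10, a channel best known from astrocytes, lay between 3.98 and 5.46 (median 4.59) in dSPN and between 5.59 and 7.21 (median 5.88) in iSPN, and its call was lost with the oligodendrocyte covariate (adjusted p = 0.0618). That fit called 3 of the 17. Sodium, calcium and other cation channels were called in 14 of 43 cases (32.6%), 4 higher and 10 lower. The calcium release channel Ryr3 had values of 6.24 to 7.60 (median 7.02) in dSPN and 7.63 to 9.31 (median 8.27) in iSPN, with a difference of -1.39 (SE 0.19, adjusted p = 4.04e-05), with Ryr1 at -1.18 and Trpc4 at -1.31. The call of Ryr1 was lost without iSPN replicate 8 (adjusted p = 0.05005) and without dSPN replicate 8 (adjusted p = 0.0511). Among pore subunits of voltage-gated calcium channels, Cacna1a was higher (0.38), and Cacna1b (-0.39), Cacna1c (-0.80), Cacna1d (-0.77) and Cacna1e (-0.31) were lower. Asic4 was higher (1.02, adjusted p = 1.71e-05) and Asic1 lower (-0.55). With the covariate 3 of the 14 were called.

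Glutamate receptors and scaffolds were called in 10 of 50 cases, 6 higher and 4 lower, a share of 20% against 18.5% among all genes. The kainate receptor subunits split: against Grik3 at -3.40, Grik2 stood between 8.82 and 9.31 (median 9.11) in dSPN, against 7.45 to 8.26 (median 8.04) in iSPN, with a difference of 1.15 (SE 0.10, adjusted p = 5.3e-08), again without overlap. The synaptic pentraxin Nptx2 lay between 6.46 and 7.99 (median 7.15) in dSPN and between 4.69 and 6.70 (median 5.71) in iSPN, with a difference of 1.44 (SE 0.26, adjusted p = 0.000472), from 1 of 2 probe sets. Grin2c, an NMDA receptor subunit, was lower (-1.17) and Grm8, a presynaptic glutamate receptor, higher (1.16), both with overlap. GABA and glycine receptor genes were called in 9 of 17 cases (52.9%), 5 higher and 4 lower. Gabra3 had values of 3.85 to 5.86 (median 4.64) in dSPN and 5.32 to 6.62 (median 6.32) in iSPN, with a difference of -1.56 (SE 0.21, adjusted p = 2.84e-05) and both probe sets called. The glycine receptor subunit Glra2 was higher (1.18), as were the GABA-B auxiliary subunits Kctd16 (0.69) and Kctd8 (0.67). In the fit with the oligodendrocyte covariate 5 of the 10 and 4 of the 9 were called.

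Neuropeptides, granins and secreted factors were called in 19 of 56 cases (33.9%, against 18.5%), 12 higher and 7 lower, with a list median of 0.11. Beside Pdyn and Tac1, the granin Scg2 stood between 8.95 and 10.002 (median 9.81) in dSPN, against 7.84 to 8.67 (median 8.25) in iSPN, with a difference of 1.39 (SE 0.14, adjusted p = 1.09e-06). The activity-regulated precursor Vgf lay between 8.45 and 9.67 (median 9.15) in dSPN and between 7.82 and 8.77 (median 8.25) in iSPN, with a difference of 0.86 (SE 0.15, adjusted p = 0.000377). The tachykinin gene Tac2 was higher (1.35, adjusted p = 0.000736). Lower in dSPN beside Penk and Nts were the activin-binding Fst (-1.55), Stc1 (-1.36), the morphogen Wnt7a (-1.21), Nucb2 (-0.82) and Igf1 (-0.57). With the oligodendrocyte covariate 12 of the 19 were called.

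Guidance and adhesion genes differed in both directions. Axon guidance and Eph-ephrin genes were called in 11 of 65 cases, 2 higher and 9 lower, a share of 16.9% that lies near the 18.5% of all genes. The netrin receptors Unc5b and Unc5c were among the lower. Unc5b had values of 4.86 to 6.83 (median 6.14) in dSPN and 6.84 to 8.02 (median 7.46) in iSPN. Unc5c stood between 6.15 and 7.17 (median 6.40) in dSPN, against 7.22 to 8.79 (median 7.69) in iSPN. Neither overlapped between the lines, and 1 of 2 probe sets was called for each. The semaphorin receptor Nrp1 was also lower (-1.14, adjusted p = 0.00548). Cell adhesion and synapse organisers were called in 24 of 80 cases (30%), 14 higher and 10 lower. Ptprf lay between 7.97 and 9.03 (median 8.23) in dSPN and between 5.72 and 8.44 (median 6.67) in iSPN, with a difference of 1.42 (SE 0.26, adjusted p = 0.000719), from 1 of 3 probe sets, whereas its relatives Ptprm (-2.05) and Ptprd (-0.61) were lower. Cdh20 was lower (-1.19) and Il1rapl2 higher (1.09). After adding the oligodendrocyte covariate 3 of the 11 and 5 of the 24 were called.

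Purine handling genes were called in 9 of 22 cases (40.9%, against 18.5%), 3 higher and 6 lower. The lower ones held enzymes on both sides of adenosine: Nt5e makes it outside the cell, and Adk, which removes it inside, had values of 6.25 to 7.36 (median 7.10) in dSPN and 8.26 to 9.07 (median 8.59) in iSPN, with a difference of -1.62 (SE 0.13, adjusted p = 4.79e-08) and 2 of 3 probe sets called. P2ry1 stood between 2.90 and 4.09 (median 3.61) in dSPN, against 3.53 to 6.31 (median 5.51) in iSPN, with a difference of -1.63 (SE 0.31, adjusted p = 0.000981). With the oligodendrocyte covariate 4 of the 9 were called, namely Nt5e, Upb1, P2ry1 and Adk.

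Kinases and phosphatases of calcium and lipid signalling were called in 14 of 57 cases, 9 higher and 5 lower, a share of 24.6% near the 18.5% of all genes. The diacylglycerol kinase Dgkz lay between 10.49 and 11.08 (median 10.75) in dSPN and between 7.42 and 10.82 (median 9.50) in iSPN, with a difference of 1.38 (SE 0.26, adjusted p = 0.000908). The protein kinase C genes Prkca (1.10, adjusted p = 0.000332) and Prkch (0.93) and the phospholipase Plcb4 (0.96) were also higher. The other probe sets of Plcb4, at -0.24 and 0.0041, were not called, and its call was lost with either covariate. Phactr2 was the lowest (-1.48) with overlapping groups. The covariate fit called 5 of the 14.

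Synaptic vesicle release genes were called in 20 of 52 cases (38.5%, against 18.5%), 17 higher and 3 lower, with a list median of 0.15 against 0.01 for all genes. None of them passed 2-fold. The calcium sensor Syt9 had values of 7.63 to 8.23 (median 7.93) in dSPN and 6.10 to 7.95 (median 7.10) in iSPN, with a difference of 0.86 (SE 0.18, adjusted p = 0.0019). Rab3b, a vesicle G protein, stood between 9.68 and 10.21 (median 9.996) in dSPN, against 8.48 to 9.75 (median 9.02) in iSPN, and the synapsin Syn1 lay between 10.34 and 10.63 (median 10.54) in dSPN and between 9.39 and 10.35 (median 9.80) in iSPN. Syt12 was higher (0.75), and the active zone scaffolds Pclo (-0.80) and Bsn (-0.55) were lower with Syt13 (-0.60). The list mean lay between 9.16 and 9.31 in dSPN and between 9.02 and 9.18 in iSPN. In the fit with the oligodendrocyte covariate 6 of the 20 were called, and in the lesioned mice 10 were called with the same sign.

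Housekeeping lists held few calls. Cytosolic ribosomal proteins were called in 2 of 28 cases, or 7.14% against 18.5% of all genes (Rplp2 at -0.31 and Rps27 at -0.36). Rps27 lay between 3.83 and 4.59 in dSPN and between 4.25 and 4.76 in iSPN, near the array medians of 4.31 to 4.42. The list mean lay between 10.90 and 11.24 in dSPN and between 10.95 and 11.30 in iSPN. The call of Rps27 therefore rests on a probe set of low signal. Oxidative phosphorylation genes were called in 6 of 53 cases (11.3%), 4 higher and 2 lower, with no difference beyond 0.36 (Sdhc). Among these were Cycs (0.33), Ndufs4 (0.28) and Atp5g1 (-0.27). The other probe sets of Sdhc (-0.12) and Atp5g1 (0.10) had the opposite sign and were not called. On leaving out 1 array the call of Sdhc was lost in 15 of 20 fits (adjusted p up to 0.0836) and that of Ndufs4 in 12 (up to 0.0742). With the oligodendrocyte covariate 1 of the 2 and 1 of the 6 were called. Activity-regulated genes were called in 4 of 28 cases (14.3%), Nptx2 and Vgf higher and Btg2 (-0.82) and Jun (-0.71) lower. None of the 4 was called with the oligodendrocyte covariate, and leaving out 1 array ended the call of Btg2 in 14 of 20 fits (adjusted p up to 0.0750) and that of Jun in 7 (up to 0.0600).

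Genes shared by both neuron types differed by small amounts: 10 of 22 were called (45.5%, against 18.5% of all genes), 2 higher and 8 lower, the largest being Rasd2 (-0.57), and 5 of the 10 were called with the oligodendrocyte covariate. Gad2, an enzyme of GABA synthesis, had values of 11.62 to 11.90 (median 11.71) in dSPN and 10.93 to 11.60 (median 11.32) in iSPN, with a difference of 0.42 (SE 0.08, adjusted p = 0.000715), and Gng7 stood between 11.20 and 11.56 (median 11.35) in dSPN, against 11.58 to 11.89 (median 11.71) in iSPN. Neither overlapped between the lines, but the other probe set of Gad2 differed by 0.15 and was not called. The striosome list, genes of the patch compartment, was called in 6 of 15 cases (40%, against 18.5%), 3 in each direction, with Bach2 and Spon1 (1.42) at the ends. Ptprd and Mfge8 (0.54) were also called, Mfge8 not without dSPN replicate 9 (adjusted p = 0.0517). None of the 6 was called with the oligodendrocyte covariate, and 1 was called with the same sign in lesioned mice with saline. The matrix list was called in 1 of 12 cases (8.33%), Kcnip2 at -0.20, which the covariate fit did not call. Genes of the exopatch or eccentric neurons were called in 3 of 11 cases (27.3%), Foxp2 and Otof (0.60) higher and Sema3e (-0.65) lower, and all 3 were called in that fit. Otof was low in both lines, at 3.31 to 4.44 in dSPN and 2.91 to 3.72 in iSPN. Most of its iSPN values lay under the level filter (3.53). With the dSPN arrays of run 1 alone the calls of Otof (adjusted p = 0.170) and Sema3e (adjusted p = 0.0544) were lost. The medians of these 3 compartment lists were 0.10, 0.01 and 0.0023.

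Called markers of oligodendrocytes and astrocytes were all lower in dSPN, and those of other cells gave few calls or calls in both directions. Oligodendrocyte markers were called in 11 of 17 cases (64.7%, against 18.5% of all genes), all lower in dSPN, with a median of -0.86. Mobp, a myelin protein gene, lay between 8.18 and 9.46 (median 8.62) in dSPN and between 9.12 and 11.06 (median 10.15) in iSPN. Cldn11, of the myelin tight junction, had values of 6.90 to 8.10 (median 7.60) in dSPN and 8.18 to 9.99 (median 8.80) in iSPN. Ugt8a differed by -1.24 and Cryab by -1.22. Astrocyte markers were called in 5 of 16 cases (31.2%), all lower, with a median of -0.50, led by Aldh1l1 (-1.13), Acsbg1 (-1.02), Gja1 (-0.93) and Aldoc (-0.80). Of 12 microglia markers Tyrobp was lower (-1.18) and Cd68 higher (0.59), a share of 16.7%, and the call of Cd68 was lost on leaving out 1 array in 4 of 20 fits (adjusted p up to 0.0517). None of 6 endothelial and mural markers was called. Cholinergic interneurons carry the D2 receptor, and of 8 of their markers 4 were lower and 1 higher in dSPN (62.5%). Lhx8 stood between 3.80 and 5.35 (median 4.63) in dSPN, against 4.80 to 7.45 (median 6.07) in iSPN, and the acetylcholine transporters Slc18a3 (-1.12) and Slc5a7 (-1.02) and the peptidase Ecel1 (-0.83) went with it, while Isl1, which these cells share with dSPN, was higher. Most dSPN values of Slc18a3, which ran from 3.11 to 4.14, lay under the level filter (3.53). The list mean of the cholinergic markers lay between 5.33 and 5.79 in dSPN and between 5.73 and 6.29 in iSPN. GABA interneuron markers were called in 1 of 11 cases (9.09%), Cck at 0.55, a call lost on leaving out 1 array in 12 of 20 fits (adjusted p up to 0.0712). Of 6 dopaminergic terminal markers Dlk1 was higher (1.25), and Th (-0.78) and Ddc (-1.19) lower (50%). Of 6 cortical markers Nrn1 (1.17), Lamp5 (0.43) and Neurod2 (0.38) were higher and Rorb (-0.82) lower (66.7%). Nrn1 lay between 2.74 and 3.27 in iSPN, under the level filter (3.53), apart from replicate 9 (4.59). In dSPN it lay between 3.56 and 4.29, apart from replicate 10 (6.98). With the oligodendrocyte covariate 3 of the 5 cholinergic calls remained and none of those of the other cell types named here. That covariate is the mean of the oligodendrocyte markers, so the loss of their own calls was fixed in advance. The losses in the other lists say nothing on the cause, as stated above.

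**Figure D4:**
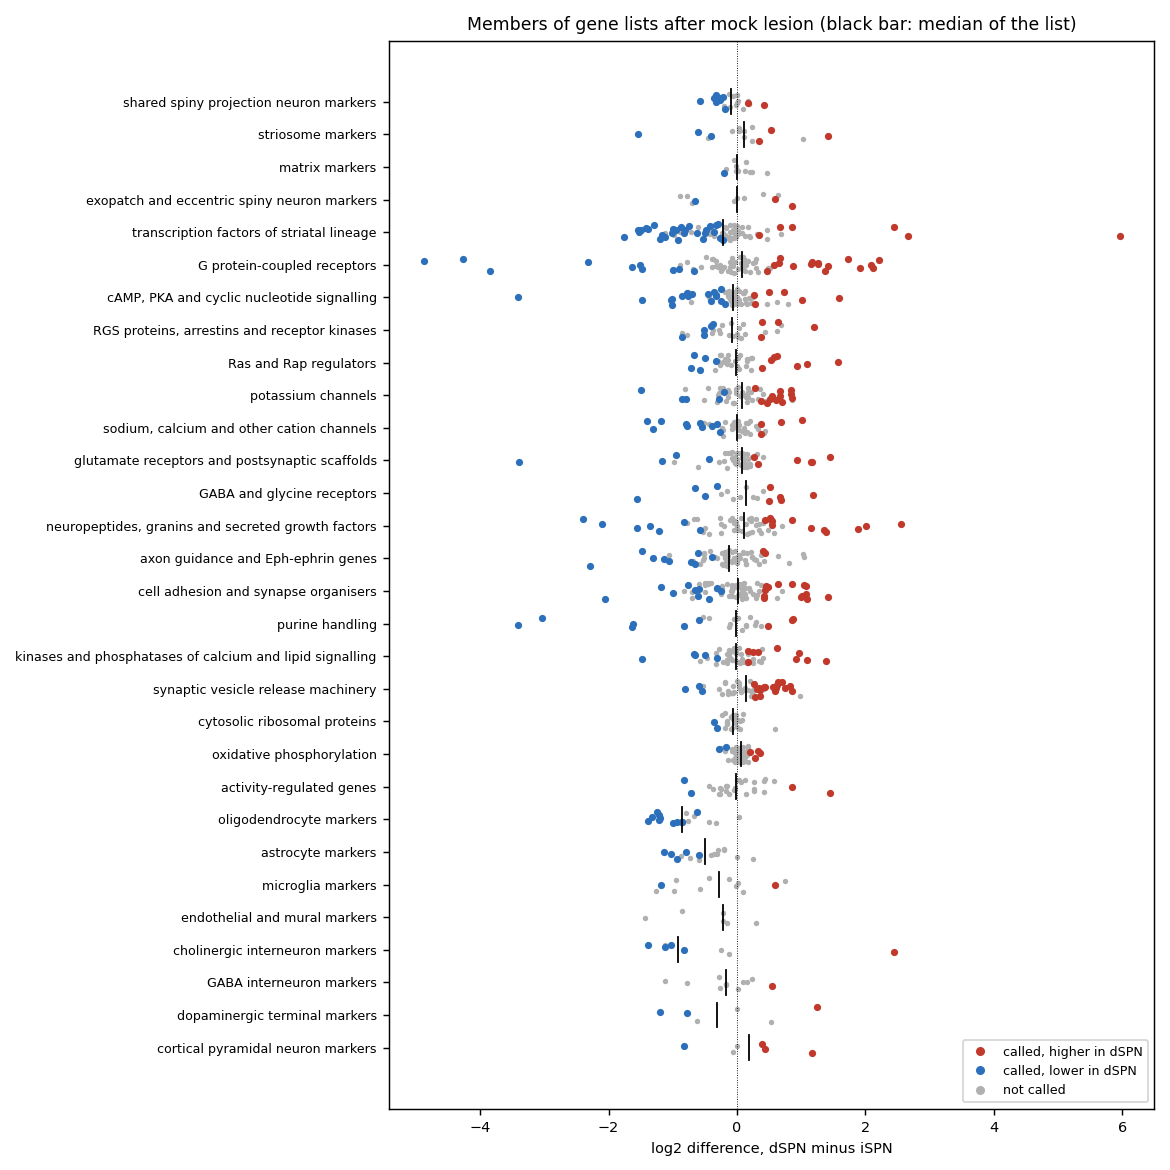
Difference dSPN minus iSPN (log2) of every tested member of each gene list beyond the best-known markers, with called genes in red (higher in dSPN) and blue (lower), others in grey, and the median of each list as a black bar. The vesicle release list lies to the right of 0 (median 0.15) and the oligodendrocyte list to the left (median -0.86).

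The line difference was then measured in lesioned mice with saline, which share no array with the mock-lesioned mice. There 2576 genes (19.4%) were called. Of the 2448 genes called after mock lesion, 2128 (86.9%) had the same sign after the lesion, against 61.6% of the 10809 genes not called. Calls with the same sign numbered 998 (40.8%), and 52 genes were called with the opposite sign. Of the 431 genes over 2-fold, 387 kept the sign (89.8%) and 223 were called with it (51.7%). After low levodopa 4444 genes were called in all (33.5%), and 1441 of the 2448 were among them with the same sign and 62 with the opposite sign. After high levodopa 5848 were called in all (44.1%), and 1390 of the 2448 were among them with the same sign and 188 with the opposite sign. In all 4 conditions 622 genes were called with the same sign, 257 higher and 365 lower in dSPN. All 13 best-known markers were among those called with the same sign in lesioned mice with saline, and of the 24 leading genes 20 were.

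The difference between the lines after the lesion differed from that after mock lesion in 525 genes (3.96%, interaction term in limma). Within each line the lesioned and mock-lesioned mice lie partly in the same runs and partly in different ones. The fit held no run term, so effects of the lesion and of run were not separated. Vgf differed by -2.94 after the lesion, where it averaged 7.03 in dSPN and 9.96 in iSPN, and by 0.86 after mock lesion, an interaction of -3.79 (SE 0.29, adjusted p = 2.22e-11). Nptx2 went the same way, with -1.91 after the lesion and 1.44 after mock lesion, an interaction of -3.35 (SE 0.40, adjusted p = 2.76e-07). Fam163b, among the 12 lowest genes, differed by 0.21 after the lesion and by -1.95 after mock lesion, an interaction of 2.16 (SE 0.24, adjusted p = 6.33e-08). Igfbp6 differed by 0.26 after the lesion and by 2.02 after mock lesion, an interaction of -1.76 (SE 0.23, adjusted p = 2.18e-06). Nts stood further towards iSPN after the lesion, at -4.92 against -2.39 after mock lesion, an interaction of -2.53 (SE 0.44, adjusted p = 0.00023). With high levodopa the difference was 1.27 for Vgf, 2.61 for Nptx2, -2.25 for Fam163b, 1.68 for Igfbp6 and -2.75 for Nts, in each case with the sign seen after mock lesion. Of the 13 best-known markers, Penk passed the interaction test, with -1.73 after the lesion and -2.10 after mock lesion, an interaction of 0.37 (SE 0.10, adjusted p = 0.0234). The other 12 did not pass it (lowest adjusted p = 0.192, for Isl1).

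**Figure D5:**
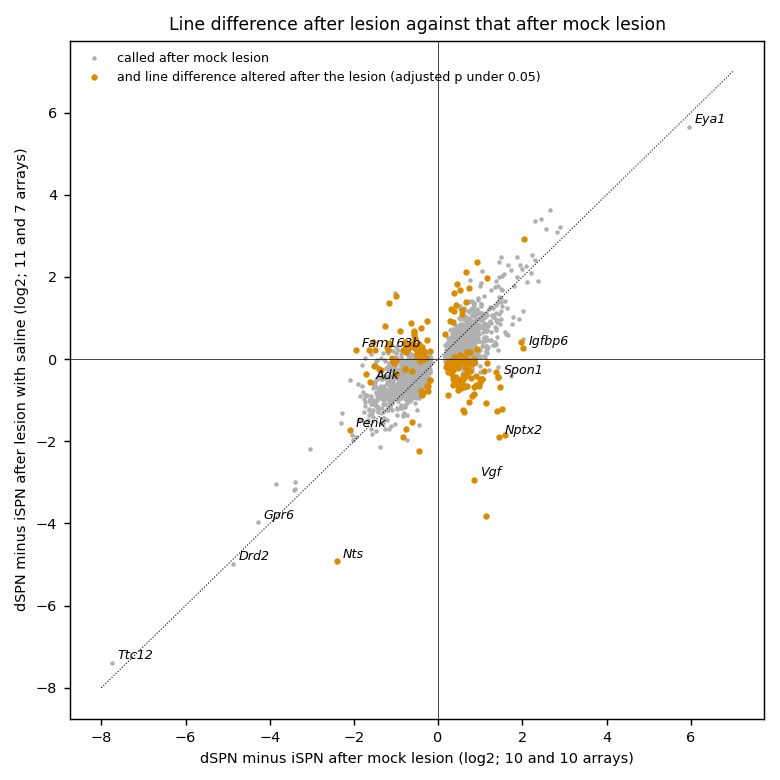
Difference dSPN minus iSPN after lesion with saline (vertical, log2, 11 and 7 arrays) against that after mock lesion (horizontal, log2, 10 and 10 arrays) for the 2448 genes called after mock lesion, with genes that passed the interaction test in orange and the line of equality dotted. Eya1, Ttc12, Drd2 and Gpr6 lie near that line, while Vgf, at -2.94 after the lesion and 0.86 after mock lesion, lies far below it.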

How the data were processed

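The deposited values are log2 intensities of probe sets that the authors made with RMA and the affy package per the submitters' processing notes, with versions not given in the sources used here. Values ran from 1.34 to 14.45 over 45101 probe sets, with array medians from 4.31 to 4.42, so arrays were used as deposited. RMA brings arrays to 1 distribution, so a shift of all genes between the lines would not show. Probe sets with a single symbol in the platform annotation (34958) were kept, 932 with several and 9211 with none left out, and the brightest probe set on average stood for its gene. Of 18194 genes, 13257 were tested, those whose mean passed the 40th percentile of all probe sets (3.53). That mean is over both lines, so a gene could pass through 1 line alone. Detection calls were not used. Precision is set by how many arrays there are (median standard error, SE, 0.15).

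The 10 dSPN and 10 iSPN arrays were compared with lmFit and eBayes in limma 3.58.1 (R 4.3.3), 18 residual degrees of freedom, two-sided, with Benjamini-Hochberg adjustment over all genes tested. Each lesioned condition was fitted alone, and the interaction in 4 groups. The code was tested on simulated data. The members, the 32 gene lists and the tests were chosen with earlier results of these data known. Named are the 12 highest and 12 lowest called genes beyond the best-known markers, those markers, up to 4 called members of each list with the largest difference, and the 2 annotated neighbours on each side of Drd1 and Drd2. Other genes named, and the neighbours of other markers, were chosen after their values were seen. Each array is a mouse.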

Additional observations from a re-analysis of the deposited data

Results flagged for a closer look

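In 25 of 248 groups of 10 arrays (124 named genes in each line), an array stood far from the rest, 9 in dSPN and 16 in iSPN. Chance flags about 1 in 20 groups. In dSPN, replicate 1 was low for Eya1 (10.74), replicate 6 low for Fxyd7 (7.49), replicate 9 high for Syt12 (8.43), and replicate 8 high for Nell1 (6.22) and low for Ryr1 (4.56). Replicate 10 of dSPN was low for Oprd1 (3.58) and high for Nrn1 (6.98), and replicate 3 high for Kcnj10 (5.46) and low for Cd68 (7.79). In iSPN, replicate 3 was high for Isl1 (8.27), Rasd2 (12.16), Ryr3 (9.31) and Cryab (10.91), and low for Nts (5.92) and Dgkz (7.42). That array also had the highest oligodendrocyte mean. Replicate 6 of iSPN was high for Chrm4 (6.30) and low for Kcns2 (7.08), Gabra3 (5.32) and Dlk1 (4.33). Replicate 9 of iSPN was high for Ceacam10 (4.17) and Nrn1 (4.59), and low for Cdc14a (5.55) and Rassf3 (8.98). Replicate 4 of iSPN was high for Kcnip2 (12.35) and replicate 7 low for Btg2 (3.90).

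The line difference after the lesion differed from that after mock lesion, by the interaction term in limma, in 20 of the 124 named genes. Among all genes tested the share was 3.96%. Of the 124, 122 were called after mock lesion, and that same difference enters the interaction, so the count is a description. As the difference after the lesion minus that after mock lesion, the secreted or activity-regulated genes gave -3.79 for Vgf, -3.35 for Nptx2, -2.53 for Nts, -1.87 for Spon1, -1.76 for Igfbp6 and -1.24 for Mfge8. Negative values were also found for Syt12 (-1.03), Gad2 (-0.53), Atp5g1 (-0.37) and Cycs (-0.35). Positive values were found for Fam163b (2.16), P2ry1 (1.85), Cdh20 (1.403), Adk (1.05), Fxyd7 (0.89), Kctd8 (0.72), Kcnip2 (0.40) and Penk (0.37). The glial markers Tyrobp (1.57) and Aldh1l1 (1.49) also changed. Tyrobp differed by 0.39 after the lesion and by -1.18 after mock lesion, and Aldh1l1 by 0.36 after the lesion and by -1.13 after mock lesion, and neither was called after the lesion (adjusted p = 0.507 and 0.289). The lesion compares different mice, partly of different runs, and the part of run or of other cell types in these changes was not tested.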

How the results depend on the processing

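The count of called genes (2448) and of those over 2-fold (431) moved by under 1.5 times with all 77 arrays in the fit, array weights, a variance trend, either other level filter, new quantile normalization, run as a random block or iSPN run 5 alone. They moved further, to 583 and 214 with the oligodendrocyte covariate, 436 and 187 with the astrocyte covariate, 418 and 178 with both, 719 and 284 with the 4 dSPN arrays of run 1, 644 and 257 with the 4 of run 4, and 4404 and 763 with every probe set on its own. The runs hold fewer arrays and the last counts probe sets, not genes. Run as a random block gave 3512 called and 467 over 2-fold. No run holds both lines, so that fit cannot adjust the line difference for run. The mean of a gene's probe sets gave 251 over 2-fold. Leaving out each array in turn gave 2130 (without dSPN replicate 8) to 2455 called and 380 (without iSPN replicate 3) to 466 over 2-fold. Signs turned for Gnal with the mean of its probe sets (0.12), Pde8a (0.0660) and Cd68 (-0.0537) with the oligodendrocyte covariate, Cd68 with both (-0.0606), and Hrh2, not called at 0.01, with dSPN run 4 (-0.0586) and on leaving out single arrays (-0.0320 to 0.0697). The cause was not tested. The oligodendrocyte covariate ended 57 calls of named genes without turning their sign, the astrocyte covariate 65, both together 66, and the dSPN arrays of run 1 or run 4 alone 49 each. Leaving out 1 array ended 98 calls over 10 named genes, 6 of which lost it in 10 or more of the 20 fits. No paired analysis was possible because the replicate numbers are given in accession order and pair no animals.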

Other observations

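A set of 163 genes passed 4 criteria: they were called after mock lesion, their arrays did not overlap, and the call held with the oligodendrocyte covariate and, with the same sign, in lesioned mice with saline. The astrocyte covariate, which was no criterion, left 153 of them called, and both covariates together 133. Of the 163, 71 were higher and 92 lower in dSPN, and 39 are among the genes named by rule. The set was defined after the values were seen, and it is a description. The 5 highest of those not yet described were genes of signalling scaffolds, calcium sensing, the cytoskeleton and neural progenitors. Sntg2, a syntrophin scaffold, lay between 4.99 and 7.44 in dSPN and between 3.91 and 4.76 in iSPN, a gap of 1.95 (SE 0.27). The neuronal calcium sensor Hpcal1 lay between 9.13 and 9.86 in dSPN and between 7.002 and 8.58 in iSPN, a gap of 1.66 (SE 0.19). The tubulin-binding Stmn2 had 8.98 to 9.49 in dSPN and 6.92 to 8.09 in iSPN, a gap of 1.53 (SE 0.12). Baalc followed with 1.52, and the transcription factor Sox1 with 1.502.

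The 5 lowest held the shedding protease Adam17, the RNA-destabilising protein Zfp36, the enzyme B3gat1, the zinc finger factor Sall1 and Tmem196. Adam17 lay between 4.91 and 6.63 in dSPN and between 6.70 and 8.67 in iSPN, a gap of -1.89 (SE 0.24). Zfp36 had 3.99 to 5.76 in dSPN and 5.97 to 8.11 in iSPN, a gap of -1.88 (SE 0.28). B3gat1, which makes the HNK-1 carbohydrate of neural surfaces, had 6.47 to 8.58 in dSPN and 9.06 to 10.23 in iSPN, a gap of -1.73 (SE 0.22). Sall1 differed by -1.73 and Tmem196 by -1.69. After the lesion these 10 genes had gaps of 1.39 to 2.30 on the higher side and of -1.54 to -1.06 on the lower side. Their sign there was a criterion of the set and is no further result.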
